A study of Mus musculus with 10 samples.

Results

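The genes of the respiratory chain and ATP synthase were followed in the livers of germ-free (GF) mice given gut microbiota-derived extracellular vesicles (MEV) or their PBS vehicle by mouth. Members were all rows of the count table whose Ensembl identifier maps, in the GENCODE annotation of the mouse genome GRCm38, to a protein-coding gene named as a subunit or like-named factor of complex I (*Nduf* genes), complex II (*Sdha* to *Sdhd*), complex III (*Uqcr* genes), complex IV (*Cox4* to *Cox8*) or ATP synthase, complex V (*Atp5* genes), or as one of the protein genes of the mitochondrial genome (*mt-* genes). The annotation held 107 such genes, and 102 of them were among the 12148 rows of the table: 89 nuclear genes and 13 genes of the mitochondrial genome. *Cox4i2*, *Cox6b2*, *Cox7b2*, *Cox8c* and a second identifier of *Atp5o* had no row. All animals were wild-type, germ-free C57BL/6 mice, with 5 in the group given MEV (labelled EV, here GF+MEV) and 5 in the group given PBS alone (GF+PBS). The MEV came from gut contents of mice that carry a microbiota. The age and sex of the germ-free mice were not given in the sources used here. Total RNA from whole liver tissue, a mixture of hepatocytes and other cell types, was sequenced with 1 library per mouse.

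The respiratory chain passes electrons from NADH (complex I) and succinate (complex II) through complexes III and IV to oxygen and pumps protons across the inner mitochondrial membrane, and ATP synthase uses that gradient to make ATP. Complexes I, III, IV and V are built from subunits of both genomes, while complex II is wholly nuclear. In the liver, where gluconeogenesis and fatty acid oxidation are carried out, this machinery is abundant, and the coactivator PGC-1α, encoded by *Ppargc1a*, is known for raising both gluconeogenic and respiratory chain genes.

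The libraries held between 15746119 and 20523649 counts. Levels are given as CPM, counts scaled to a common library size after TMM normalization, and differences as log2 of GF+MEV over GF+PBS from edgeR's quasi-likelihood test with Benjamini-Hochberg adjustment over all 12147 tested genes. A gene was called at an adjusted p under 0.05. Summed hepatocyte markers lay between 92830 and 113000 CPM in the 10 livers, and all 6 of them were detected. Of 5 B and T cell markers, 3 had a row, all of them B cell genes. The T cell genes *Cd3d* and *Cd3e* had none. The 3 B cell genes summed to 2.48 to 3.66 CPM in GF+MEV and 5.04 to 6.42 CPM in GF+PBS, and 2 were called lower. Summed cholangiocyte markers (3 of 5) lay at 28.1 to 79.3 and 23.2 to 29.7 CPM. Of these, 1 was called higher and 1 had a negative log2 difference. Of 5 endothelial markers 1 was called higher and 1 lower, and of 6 hepatocyte markers 1 was called higher. No Kupffer cell and macrophage, stellate, erythroid or skeletal muscle marker was called. Over all tested genes 7.64% were called. The part of these markers in any result was not tested. GF+MEV replicate 2 stood apart: 3 rows grouped here as ribosomal RNA-like (*CT010467.1*, *Gm23935* and *Lars2*) took 9.24% of its counts and at most 0.409% in any other library. The likeness of these rows to ribosomal RNA was not tested. The least different pair of livers within a group, GF+PBS replicates 1 and 3, had a chi-square per gene of 6.33, larger than counting error alone gives.

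None of the 102 respiratory chain genes was called in either direction, in a comparison that called 7.64% of all tested genes, 4.12% as higher in GF+MEV and 3.52% as lower. DESeq2's Wald test and limma-voom called none of them either, where they called 9.89% and 7.79% of all genes. At an unadjusted p under 0.05, edgeR had 3 members (*Cox8b*, *Ndufb8* and *mt-Nd1*), or 2.94%, where it had 21.2% of all genes. DESeq2 had the same count of 3, beside 20.9% of all genes, and limma-voom had 1, beside 21.4%. No member had groups that did not overlap, against 7.39% of all tested genes. In these bulk samples fewer cells of a type and less RNA per cell cannot be told apart.

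The differences were small and their intervals narrow. The 95% interval from limma-voom lay within 1.5-fold either way for 99 of the 102 members (97.1%) and for 75.6% of all tested genes. The exceptions were *mt-Nd6*, *Cox7a1* and *Cox8b*. Members were also more abundant, with a median mean level of 100.8 CPM beside 16.06 CPM over all tested genes. The part of abundance in the width of the intervals was not tested. The median log2 difference was -0.04 over the 89 nuclear members and 0.03 over the 13 genes of the mitochondrial genome, beside -0.0037 over all tested genes. Estimates below 0 were found for 66 of the 89 nuclear members (74.2%), for 5 of the 13 mitochondrial-genome members, and for 51% of all genes. Upper-quartile scaling moved the nuclear count to 84 of 89 and the mitochondrial-genome count to 7 of 13, with 61.6% of all genes below 0. With single livers left out, the nuclear median ran from -0.064 to -0.0080. The lowest came without GF+PBS replicate 2, with 74 of 89 below 0, and the highest without GF+PBS replicate 1, with 54 of 89 below 0.

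**Figure D1:**
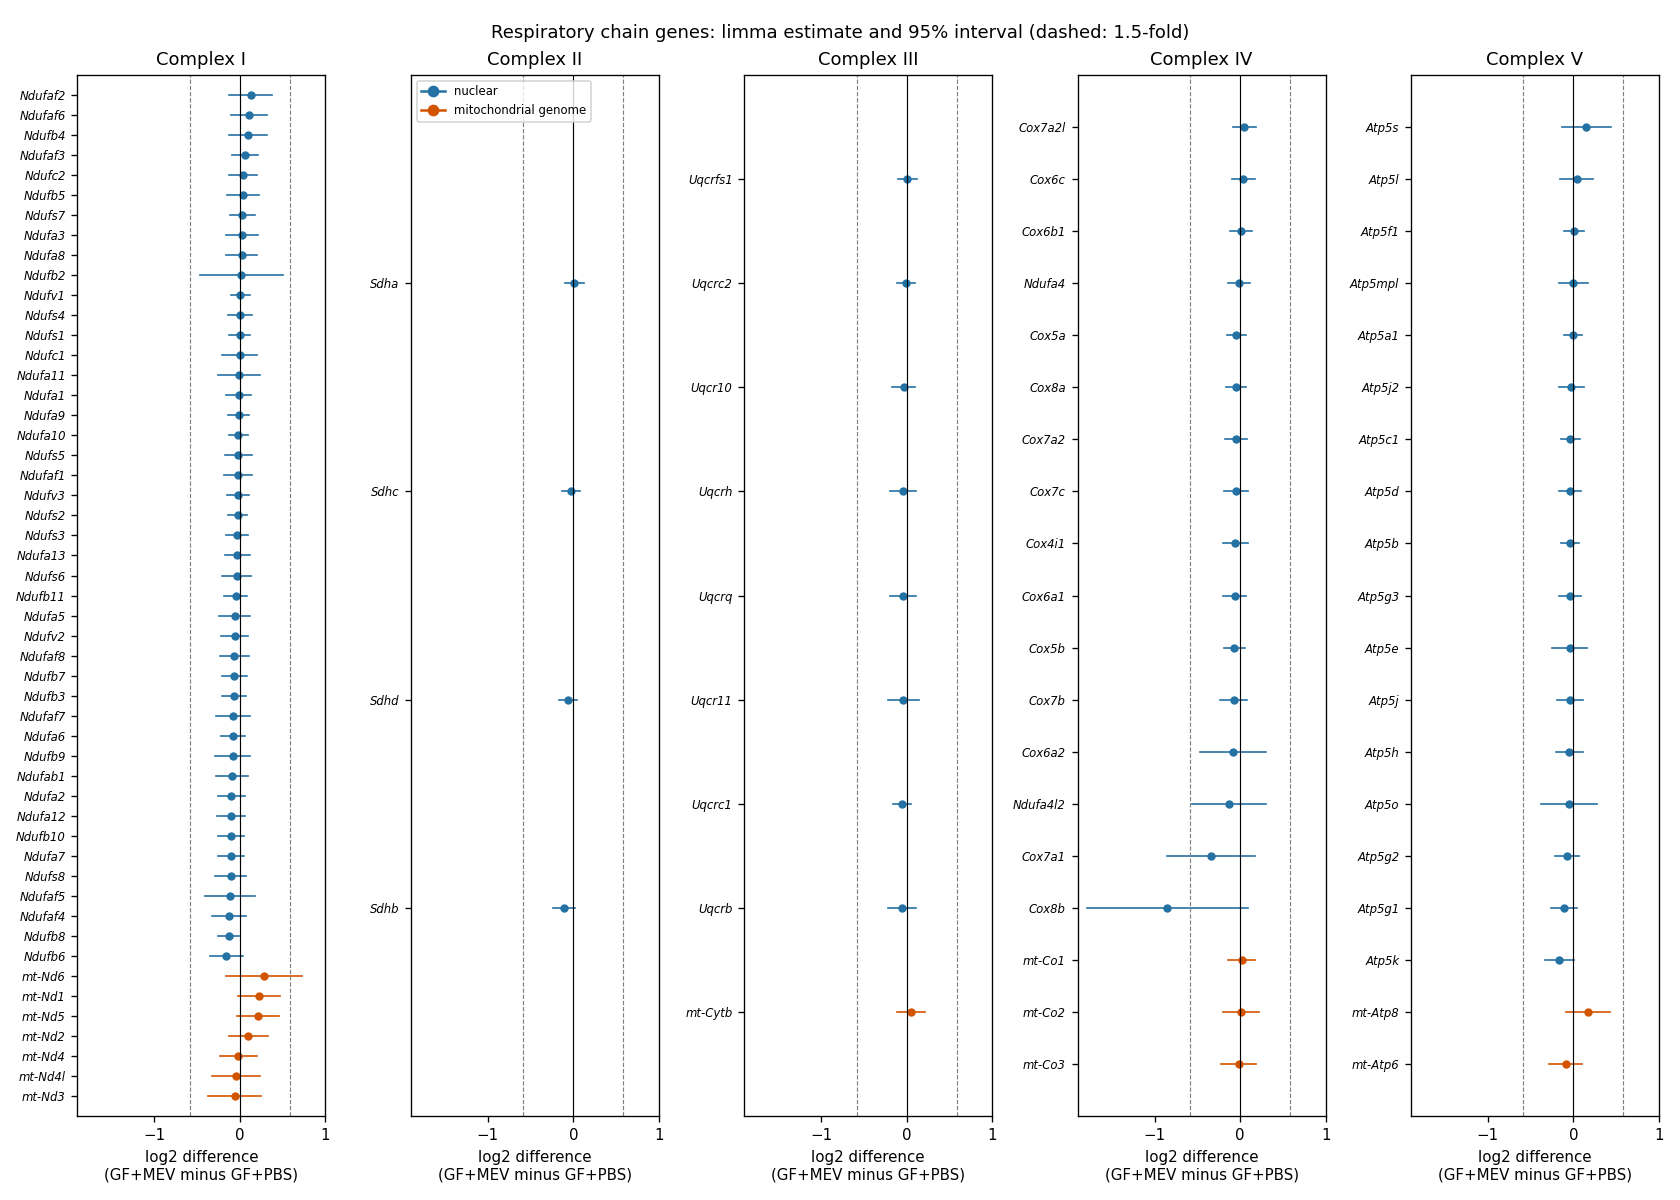
Log2 difference (GF+MEV minus GF+PBS, x axis) of each of the 102 respiratory chain genes, by complex, with the limma-voom estimate as a point and its 95% interval as a line. Blue marks nuclear genes, orange marks genes of the mitochondrial genome, and dashed lines mark 1.5-fold; only *mt-Nd6*, *Cox7a1* and *Cox8b* have intervals that cross a dashed line.

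Complex I, which oxidises NADH, had 44 nuclear members in the table, with log2 differences between -0.16 and 0.15 and a median of -0.03. The 7 nuclear core subunits, which hold the flavin and the iron-sulphur clusters, had a median of -0.03 with 5 below 0, the 29 accessory subunits a median of -0.03 with 20 below 0, and the 8 assembly factors, which build the complex and leave it, a median of -0.04 with 5 below 0. *Ndufb8* is an accessory subunit of the membrane arm. It measured 73.2, 65.3, 66.1, 63.0 and 69.1 CPM in GF+MEV replicates 1 to 5 and 77.5, 74.5, 70.7, 74.4 and 70.9 CPM in GF+PBS replicates 1 to 5. Only GF+MEV replicate 1 lay within the GF+PBS range, and the other 4 GF+MEV livers lay below it. The log2 difference was -0.13 (standard error 0.045, edgeR adjusted p = 0.211), and an exact two-sided permutation test of this gene alone gave an unadjusted p = 0.0317 (n = 5 mice per group).

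The lowest log2 difference among nuclear complex I genes was that of the accessory subunit *Ndufb6*, at -0.16 (standard error 0.097, adjusted p = 0.335), and the highest that of the assembly factor *Ndufaf2*, at 0.15 (standard error 0.10, adjusted p = 0.505). Of the words of 50 bases in *Ndufaf2*, 80.9% also occur, on either strand, in another annotated gene. *B230220B15Rik*, on the opposite strand at the same place, overlaps 65.6% of the exon bases of *Ndufaf2*. Whether counting used strand was not given, so the *Ndufaf2* count of 111 to 140 reads per library is uncertain. *Ndufa2* had the highest level per length of the nuclear complex I genes, 157.5 CPM per kb of exon, where exon length is the union over all annotated transcripts, and *Ndufb10* had the highest over the longest transcript, at 167.4 CPM per kb. *Ndufb2* had the lowest mean of all members, 1.36 CPM, and 72.7% of its coding bases overlap the gene model *Gm42420* on the same strand, so its reads may not have been counted.

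Complex II, succinate dehydrogenase, also belongs to the citric acid cycle. Its 4 genes had log2 differences between -0.11 and 0.01. *Sdhb*, the iron-sulphur subunit, lay lowest: 233.9, 236.0, 214.9, 227.8 and 239.7 CPM in GF+MEV replicates 1 to 5 and 267.3, 221.0, 235.7, 266.2 and 253.0 CPM in GF+PBS replicates 1 to 5. The groups overlapped, with GF+PBS replicates 1, 4 and 5 above every GF+MEV liver (log2 difference -0.11, standard error 0.060, adjusted p = 0.345). The flavoprotein subunit *Sdha* was close to equal, at 644.8 ± 37.4 CPM in GF+MEV and 639.2 ± 16.2 CPM in GF+PBS (SD, n = 5 each). Per length, the membrane anchor *Sdhd* was the highest of the 4 over the exon union, at 184.3 CPM per kb, while *Sdha* was highest over the longest transcript, at 221.4 CPM per kb.

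Complex III had 8 nuclear members, with log2 differences between -0.05 and 0.01 and a median of -0.04. *Uqcrc1*, a core protein on the matrix side, had the lowest difference, with 408.3 ± 8.26 CPM in GF+MEV and 423.8 ± 23.2 CPM in GF+PBS (SD, n = 5 each). The Rieske iron-sulphur protein *Uqcrfs1* had the highest, with 241.7 ± 10.4 and 240.0 ± 9.93 CPM. Per length, the small subunits *Uqcr10* and *Uqcr11* were level over the exon union, at 239.0 and 238.7 CPM per kb, and *Uqcrq* was highest over the longest transcript, at 278.2 CPM per kb.

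Complex V had 17 nuclear members, between -0.16 and 0.18 on the log2 scale with a median of -0.04. *Atp5k*, the e subunit of the membrane part, measured 34.8, 34.9, 31.9, 30.0 and 30.3 CPM in GF+MEV replicates 1 to 5 and 40.9, 35.3, 32.0, 38.9 and 34.4 CPM in GF+PBS replicates 1 to 5. The ranges overlapped, although GF+PBS replicates 1, 2 and 4 lay above every GF+MEV liver (log2 difference -0.16, standard error 0.079, adjusted p = 0.241). The α subunit of the head, *Atp5a1*, had the highest level per length of exon union in this complex, 431.5 CPM per kb, and measured 1348 ± 46.2 CPM in GF+MEV and 1357 ± 62.3 CPM in GF+PBS (SD, n = 5 each). *Atp5b*, its catalytic β partner, stood at 332.7 CPM per kb of exon union but at 735.6 CPM per kb of its longest transcript, so the order of these genes depends on the length used. The highest difference was that of *Atp5s*, at 0.18 (standard error 0.12, adjusted p = 0.484). *Atp5o* measured only 3.50 CPM on average, and 47.1% of its coding bases overlap a second gene model of the same name.

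The c subunit of ATP synthase, which forms the rotating ring, is encoded by 3 genes that give the same mature protein. Per length, *Atp5g3* led with 172.4 CPM per kb, ahead of *Atp5g2* with 63.4 and *Atp5g1* with 37.1. The log2 differences between the groups were -0.04, -0.07 and -0.11 for *Atp5g3*, *Atp5g2* and *Atp5g1*, with adjusted p-values of 0.749, 0.595 and 0.410.

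Complex IV, cytochrome c oxidase, had 16 nuclear members here, counting *Ndufa4* and its relative *Ndufa4l2*, which carry complex I names but belong with complex IV. Its accessory subunits come in tissue forms. The forms known from liver and most tissues were abundant and close to equal between the groups: *Cox6a1* at 421.8 ± 13.2 CPM in GF+MEV and 441.8 ± 39.7 CPM in GF+PBS, *Cox8a* at 281.8 ± 6.47 and 291.4 ± 20.8 CPM, *Cox7a2* at 102.1 ± 3.74 and 105.6 ± 8.12 CPM (SD, n = 5 each). *Cox4i1* and *Cox6b1* had log2 differences of -0.05 and 0.02, with adjusted p-values of 0.714 and 0.925. *Cox7a2l*, given the role of an assembly factor here, measured 99.8 ± 1.26 CPM in GF+MEV and 96.8 ± 8.59 CPM in GF+PBS (SD, n = 5 each). *Ndufa4* differed by -0.01 and *Ndufa4l2* by -0.12 on the log2 scale (adjusted p = 0.935 and 0.796).

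*Cox8b*, *Cox7a1* and *Cox6a2* are the forms of heart and skeletal muscle. *Cox8b* measured 0.732, 2.48, 1.40, 1.35 and 1.61 CPM in GF+MEV replicates 1 to 5 and 0.944, 1.68, 3.45, 4.09 and 4.68 CPM in GF+PBS replicates 1 to 5. GF+PBS replicates 3, 4 and 5 lay above every GF+MEV liver, and GF+PBS replicates 1 and 2 lay within the GF+MEV range. The log2 difference was -0.98 (standard error 0.49, edgeR adjusted p = 0.152), on counts of 12 to 81 reads per library. An exact two-sided permutation test of this gene alone gave p = 0.103 (n = 5 mice per group). With single livers left out, the log2 difference ran from -1.21 to -0.769. The value of -1.21, with an adjusted p = 0.0336 in edgeR, came without GF+PBS replicate 1. That liver was the lowest of GF+PBS, so its removal had to enlarge the difference. *Cox7a1* differed by -0.28 (standard error 0.28, adjusted p = 0.554) and *Cox6a2* by -0.03 (standard error 0.23, adjusted p = 0.958).

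Several markers of skeletal muscle were high in the same livers as *Cox8b*. Of 10 such markers, 5 had a row, and their summed level was between 246.7 and 337.4 CPM in GF+MEV, whereas GF+PBS replicates 1 to 5 measured 207.8, 250.0, 681.1, 489.9 and 658.0 CPM. *Myh4*, *Acta1* and *Mylpf* were each higher in GF+PBS replicates 3, 4 and 5 than in every GF+MEV liver. *Ckm* overlapped, with a log2 difference of -0.0020, and *Mb* had the opposite sign, at 0.38. None of the 5 was called, beside 7.64% of all genes. Only *Myh4* had an unadjusted p under 0.05 (log2 difference -0.89, adjusted p = 0.0706), beside 21.2% of all genes. The other 5 markers (*Atp2a1*, *Myh1*, *Myl1*, *Tnnc2* and *Tnnt3*) had no row in the table. The part of muscle RNA in the *Cox8b* values was not tested.

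**Figure D2:**
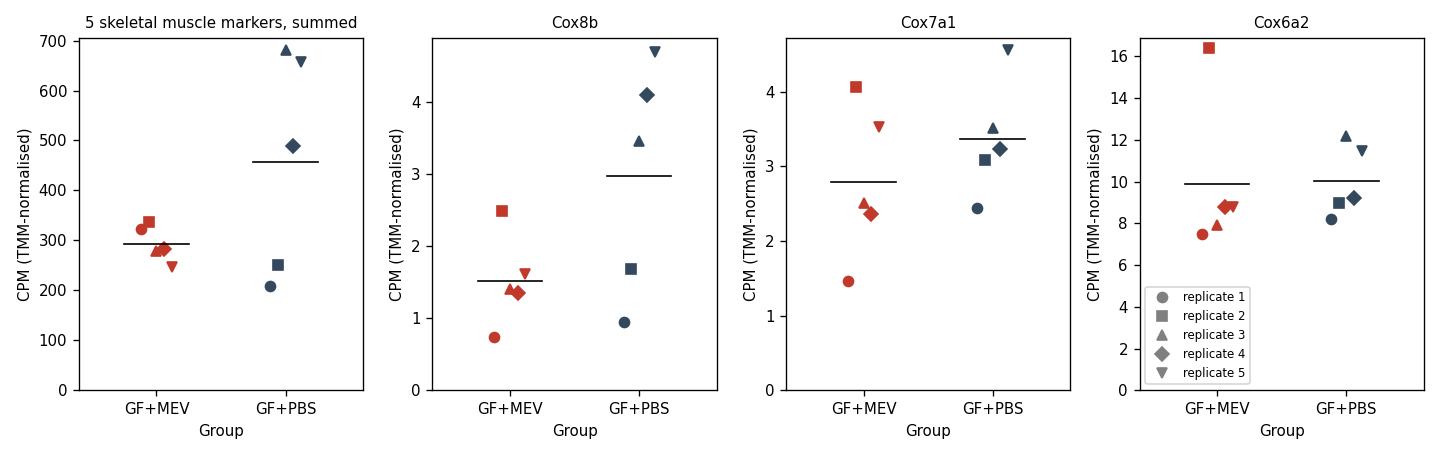
CPM in each liver (y axis) of 5 summed skeletal muscle markers and of the muscle forms *Cox8b*, *Cox7a1* and *Cox6a2*, by group (x axis), with symbols for replicates and a line at the group mean. GF+PBS replicates 3, 4 and 5 lie above every GF+MEV liver for the markers and for *Cox8b*, and GF+MEV replicate 2 lies apart at 16.4 CPM for *Cox6a2*.

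The mitochondrial genome supplied 7 complex I subunits, cytochrome b of complex III, 3 catalytic subunits of complex IV and 2 membrane subunits of ATP synthase. Together they took 3.56%, 3.98%, 3.08%, 4.20% and 3.97% of the counts in GF+MEV replicates 1 to 5 and 3.86%, 3.75%, 3.70%, 3.54% and 3.95% in GF+PBS replicates 1 to 5. GF+MEV livers lay both above and below the GF+PBS range, with replicate 3 lowest of all and replicate 4 highest in these raw shares. With TMM library sizes replicate 3 was again lowest, at 3.06%, and replicate 2 was highest, at 4.47%, as it was without the ribosomal RNA-like rows, at 4.38%. The nuclear members together took 1.205% to 1.34% of counts in GF+MEV and 1.35% to 1.46% in GF+PBS, so that these raw shares did not overlap. After TMM scaling they did, with summed levels of 12730 to 13710 CPM in GF+MEV and 13050 to 14430 CPM in GF+PBS and a ratio of the means of 0.976. Shares of complexes II and V behaved alike, not overlapping in raw counts and overlapping after scaling. With the 3 ribosomal RNA-like rows left out of the total, the nuclear shares still did not overlap (1.29% to 1.34% and 1.35% to 1.47%). The TMM factors were 0.890 to 1.009 in GF+MEV and 1.003 to 1.043 in GF+PBS. A gene at equal CPM takes a larger raw share in a library with a larger factor. Raw shares are therefore not particular to these members, and how often they do not overlap over all genes was not determined.

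The highest levels were those of *mt-Co1*, the catalytic subunit of complex IV, which measured 15560, 17980, 13700, 18360 and 17600 CPM in GF+MEV replicates 1 to 5 and 16720, 15940, 16120, 15960 and 16900 CPM in GF+PBS replicates 1 to 5. The GF+PBS livers fell inside the range of the GF+MEV livers (log2 difference 0.03, standard error 0.082, adjusted p = 0.885). *mt-Cytb*, the cytochrome b of complex III, measured 6950 ± 900.0 CPM in GF+MEV and 6691 ± 272 CPM in GF+PBS (SD, n = 5 each).

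*mt-Nd1*, the subunit at the quinone site of complex I, measured 3606, 4602, 2632, 4019 and 3921 CPM in GF+MEV replicates 1 to 5 and 3451, 3208, 3031, 2865 and 3249 CPM in GF+PBS replicates 1 to 5. GF+MEV replicate 3 lay below every GF+PBS liver, and the other 4 GF+MEV livers lay above them all (log2 difference 0.25, standard error 0.14, edgeR adjusted p = 0.228; exact two-sided permutation test of this gene alone, p = 0.135, n = 5 mice per group). *mt-Nd5*, a proton-pumping subunit, measured 3232, 4543, 2976, 4345 and 4025 CPM in GF+MEV replicates 1 to 5 and 2847, 3608, 3121, 3091 and 3722 CPM in GF+PBS replicates 1 to 5. GF+MEV replicates 2, 4 and 5 lay above all GF+PBS livers, and replicates 1 and 3 within their range (log2 difference 0.22, standard error 0.14, adjusted p = 0.288).

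*mt-Nd6* is the one member transcribed from the opposite strand of the mitochondrial genome. Its values were 361.1, 526.6, 200, 451.5 and 421.8 CPM in GF+MEV replicates 1 to 5 and 388.6, 306.4, 290.9, 229.5 and 338.4 CPM in GF+PBS replicates 1 to 5. GF+MEV replicates 2, 4 and 5 were again above every GF+PBS liver, and GF+MEV replicate 3 was the lowest of the 10 (log2 difference 0.34, standard error 0.27, adjusted p = 0.366). Its last bases overlap the end of *mt-Nd5*, and whether counting used strand was not given in the sources used here. With single livers left out, the log2 difference ran from 0.167 to 0.353 for *mt-Nd1* and from 0.207 to 0.503 for *mt-Nd6*. In the fit without GF+MEV replicate 3, both were called, with log2 differences of 0.35 and 0.50 and adjusted p-values of 0.017 and 0.0442. GF+MEV replicate 3 was the lowest of the 10 livers for both genes, so its removal had to raise both differences. *mt-Nd2* (0.12, adjusted p = 0.599) and *mt-Nd4* (-0.0001, adjusted p = 1.0) were not called with or without that liver.

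**Figure D3:**
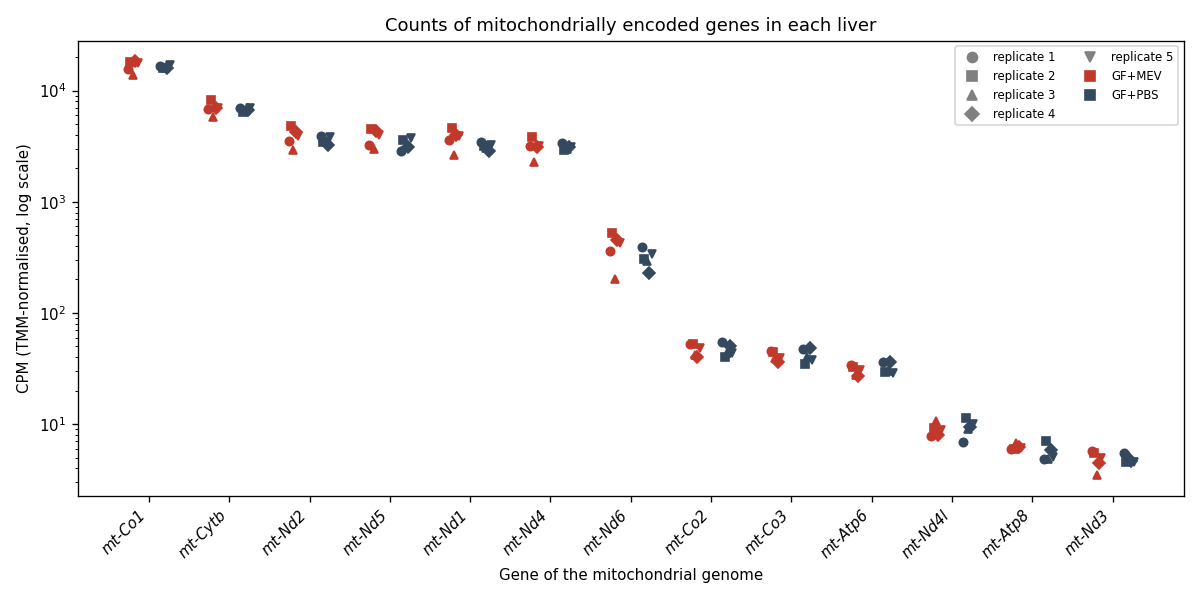
CPM (y axis, log scale) of the 13 protein genes of the mitochondrial genome (x axis) in each of 5 GF+MEV livers (red) and 5 GF+PBS livers (dark blue), with symbols for replicates. The groups overlap for every gene, GF+MEV replicate 3 is the lowest of its group for the 7 abundant genes, and 6 genes have means under 50 CPM.

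The livers varied more among themselves in GF+MEV than in GF+PBS for the 7 mitochondrial-genome members above 300 CPM, a limit set after the values were seen. Their median coefficient of variation was 18.0% in GF+MEV and 7.04% in GF+PBS, whereas over the other 6 it was 11.2% and 13.3%, over all 13 it was 13.0% and 11.3%, and over the 89 nuclear members 7.01% and 8.07%. All 7 lay above their 10-liver mean in GF+MEV replicates 2, 4 and 5, and all 7 below it in GF+MEV replicate 3, by a median of 0.37 in replicate 2 and -0.35 in replicate 3 on the log2 scale. Nuclear members also moved together within a liver: 80 of 89 lay above their own mean in GF+PBS replicate 1 and 79 in GF+PBS replicate 4, and only 8 in GF+MEV replicate 4 and 13 in GF+MEV replicate 3. GF+MEV replicate 3 was low for both sets. GF+MEV replicate 2 was high for both, with 67 of 89 nuclear members above their mean and a median nuclear deviation of 0.055. For nuclear members GF+MEV replicate 1 was alike, with 66 of 89 and 0.035. These are TMM-scaled levels, and in raw counts the nuclear share of GF+MEV replicate 2 was the lowest of the 10 livers, at 1.205%. GF+MEV replicate 4 was low for nuclear members and high for mitochondrial-genome members, and GF+PBS replicate 4 the reverse. The ratio of mitochondrial-genome to nuclear member counts was 2.66, 3.30, 2.33, 3.27 and 2.96 in GF+MEV replicates 1 to 5 and 2.64, 2.75, 2.68, 2.44 and 2.92 in GF+PBS replicates 1 to 5. The difference in spread between the groups was not tested.

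**Figure D4:**
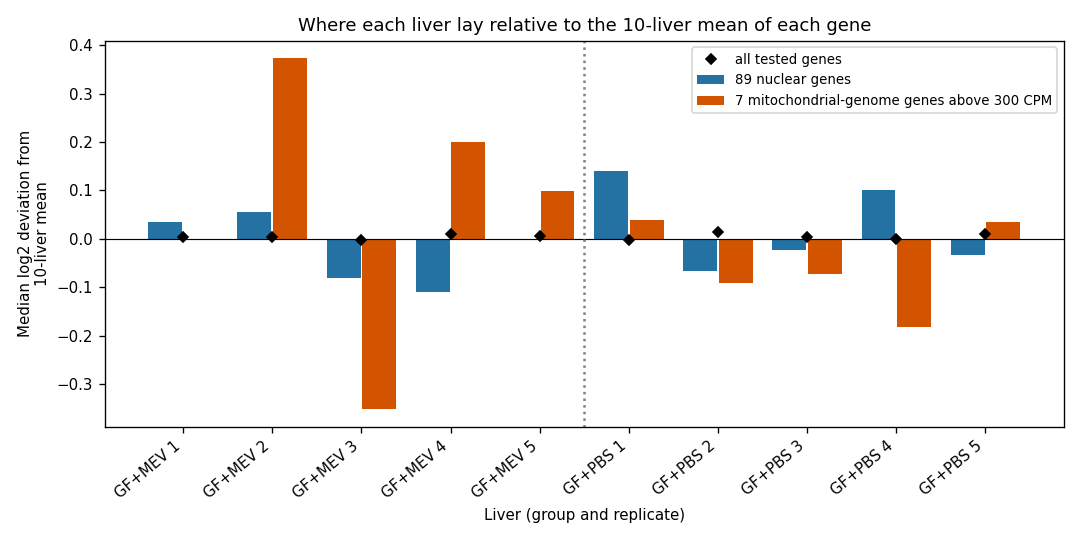
Median log2 deviation from the 10-liver mean (y axis) in each liver (x axis) over the 89 nuclear members (blue bars), the 7 mitochondrial-genome members above 300 CPM (orange bars) and all tested genes (black diamonds). The orange bars reach 0.37 in GF+MEV replicate 2 and -0.35 in GF+MEV replicate 3, and the diamonds stay near 0 in every liver.

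The 13 genes of the mitochondrial genome fell into separate levels. *mt-Nd1*, *mt-Nd2*, *mt-Nd4*, *mt-Nd5*, *mt-Nd6*, *mt-Cytb* and *mt-Co1* had means of 351 CPM or more, and *mt-Co2*, *mt-Co3*, *mt-Atp6*, *mt-Nd4l*, *mt-Atp8* and *mt-Nd3* had means between 4.85 and 46.8 CPM. Per length, the range ran from 10670 CPM per kb for *mt-Co1* to 13.9 CPM per kb for *mt-Nd3*. A stretch of nuclear chromosome 1 carries a copy of part of the mitochondrial genome, annotated as a row of pseudogenes from base 24611535 to base 24616197 of GRCm38 on the minus strand. Of the words of 50 bases in *mt-Co2*, *mt-Co3*, *mt-Atp6*, *mt-Nd4l* and *mt-Nd3*, 98.0% or more also occur in these copies. Counting all annotated nuclear copies, on chromosome 1 or elsewhere, the share was 62.2% for *mt-Nd4*, 51.1% for *mt-Co1*, 8.2% for *mt-Nd2*, 7.6% for *mt-Nd5* and 0 for *mt-Nd1*, *mt-Nd6* and *mt-Cytb*. *mt-Atp8* had a share of 0 and a mean of 5.87 CPM, but only annotated genes were searched for its words. It starts between *mt-Co2* and *mt-Atp6*, and the bases of chromosome 1 between their copies *Gm28661* and *Gm10925* carry no annotated copy. Whether *mt-Atp8* is copied there was not tested.

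The copies on chromosome 1 are near identical to the mitochondrial genes, as the following stretches of 60 bases show for 2 of them. Capitals mark the bases that differ, and the substitution from the mitochondrial gene to its copy, counted from the first base of the gene, is T3C for *mt-Nd3* and *Gm28438*, and T1056A, C1057T, A1059G, A1060G, C1062A and A1066T for *mt-Co1* and *Gm29216*, whose copy begins inside the gene. Over all 345 aligned bases *Gm28438* differs from *mt-Nd3* at only 1, and *Gm28661*, *Gm28437* and *Gm10925* do not differ from *mt-Co2*, *mt-Co3* and *mt-Atp6* over 681, 783 and 678 bases.
mt-Nd3, chrM:9459-9518, plus strand: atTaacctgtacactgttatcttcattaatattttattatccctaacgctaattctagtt
Gm28438, chr1:24613060-24613119, minus strand: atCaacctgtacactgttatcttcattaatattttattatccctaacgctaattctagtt
mt-Co1, chrM:6381-6440, plus strand: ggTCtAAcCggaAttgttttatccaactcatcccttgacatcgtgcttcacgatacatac
Gm29216, chr1:24616138-24616197, minus strand: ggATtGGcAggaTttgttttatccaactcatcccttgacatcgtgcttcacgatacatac

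The copies had levels of their own in the table: *Gm28661* a mean of 48.8 CPM beside 46.8 CPM for *mt-Co2*, *Gm28437* 40.9 CPM beside 41.2 CPM for *mt-Co3*, and *Gm10925* 46.3 CPM beside 31.3 CPM for *mt-Atp6*. Neither edgeR, DESeq2 nor limma-voom called any of the 11 copies with a row, beside 7.64%, 9.89% and 7.79% of all genes. None of the 11 had an unadjusted p under 0.05, beside 21.2%, 20.9% and 21.4% of all genes. The log2 differences of the copies were between -0.07 and 0.30. A read that fits a gene and its copy equally well cannot be assigned to either. The levels of the 5 genes with at least 98.0% of shared words are therefore uncertain. Those of *mt-Nd4* and *mt-Co1*, with 62.2% and 51.1%, are uncertain in part. The part of shared words in the order of mitochondrial levels was not tested.

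**Figure D5:**
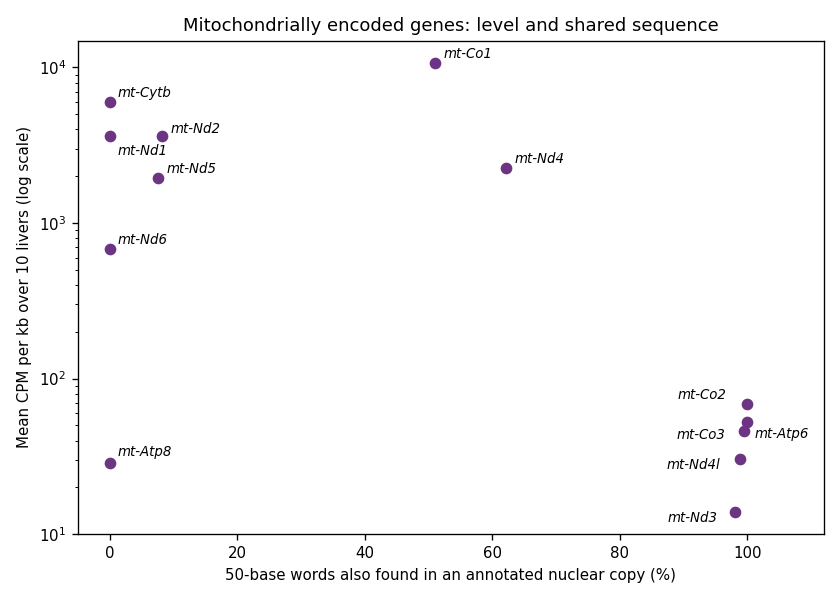
Mean level over the 10 livers in CPM per kb (y axis, log scale) against the share of a gene's 50-base words that also occur in an annotated nuclear copy (x axis, percent), for the 13 protein genes of the mitochondrial genome. The 5 genes with shares of 98.0% or more lie at or under 68.4 CPM per kb. So does *mt-Atp8*, with a share of 0 among annotated copies. The other 7 lie at or above 677 CPM per kb.

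Genes that act on the respiratory chain from outside it were read from the same fit. Among 27 tested genes of mitochondrial biogenesis and mitochondrial DNA expression, 2 rose, 1 fell and 24 did not pass, a share of 11.1% beside 7.64% of all genes. *Ppargc1a* measured 20.8, 23.1, 19.6, 22.1 and 16.5 CPM in GF+MEV replicates 1 to 5 and 5.78, 6.84, 6.72, 11.9 and 13.0 CPM in GF+PBS replicates 1 to 5. Every GF+MEV liver lay above every GF+PBS liver (log2 fold change 1.21, standard error 0.25, edgeR adjusted p = 0.00129). Its relative *Ppargc1b* also rose, by 0.66 on the log2 scale (standard error 0.21, adjusted p = 0.0352), with overlap between the groups. *Mterf1a*, a termination factor of mitochondrial transcription, fell by 0.82 (standard error 0.16, adjusted p = 0.0396) at about 1 CPM, and 32.1% of its 50-base words occur in *Mterf1b*. Both calls rested on most single livers. That of *Ppargc1b* was lost without any 1 of 7 livers (GF+MEV replicates 2, 3 and 5 and GF+PBS replicates 1 to 4; adjusted p = 0.0616 to 0.0985), and that of *Mterf1a* without any 1 of 8 (GF+MEV replicates 1, 2, 3 and 5 and GF+PBS replicates 1, 3, 4 and 5; adjusted p = 0.0592 to 0.1).

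DNA-binding factors through which these coactivators are known to act did not pass the test, and neither did *Tfam* and *Polrmt* of the mitochondrial transcription machinery. *Esrra*, *Nrf1*, *Gabpa* and *Yy1* had log2 differences of -0.12, -0.05, -0.03 and 0.01 (adjusted p = 0.558, 0.832, 0.880 and 0.946). *Tfam*, which packages mitochondrial DNA and starts its transcription, measured 41.8 ± 2.47 CPM in GF+MEV and 44.5 ± 2.03 CPM in GF+PBS (SD, n = 5 each). The mitochondrial RNA polymerase *Polrmt* measured 34.4 ± 1.83 and 33.6 ± 1.45 CPM.

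Assembly factors outside the naming rule counted 38 tested genes, of which none rose and 2 fell, a share of 5.26% beside 7.64% of all genes. *Tmem126b*, a complex I assembly factor, measured 14.6, 14.7, 13.9, 13.1 and 16.8 CPM in GF+MEV replicates 1 to 5 and 18.9, 17.3, 17.7, 18.4 and 20.8 CPM in GF+PBS replicates 1 to 5. All GF+MEV livers were below all GF+PBS livers (log2 fold change -0.35, standard error 0.075, adjusted p = 0.0194). *Cox17*, which hands copper to complex IV, fell by 1.15 (standard error 0.18, adjusted p = 0.00237), from 2.43 to 1.09 CPM. All of its coding bases overlap the gene model *Gm21987* on the same strand, so this count may be of only part of its reads. Among 25 genes of the citric acid cycle and outer membrane, 1 rose and 24 did not pass, a share of 4.0% beside 7.64% of all genes. Fumarase (*Fh1*) rose, with 291.8 ± 12.8 CPM in the livers given MEV and 226.5 ± 18.4 CPM in controls (SD, n = 5 each; log2 fold change 0.36, adjusted p = 0.00208), without overlap. Citrate synthase (*Cs*) measured 155.5 ± 6.75 CPM in GF+MEV and 161.3 ± 2.5 CPM in GF+PBS.

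None of 24 mobile carriers and other electron donors was called by edgeR, beside 7.64% of all genes. At an unadjusted p under 0.05 edgeR had 2, beside 21.2% of all genes. DESeq2 and limma-voom each called 1, beside 9.89% and 7.79% of all genes. It was the sulphide oxidising enzyme *Sqor* (edgeR log2 difference -0.21, adjusted p = 0.0547). Cytochrome c (*Cycs*) measured 93.5 ± 10.7 CPM in GF+MEV and 90.6 ± 2.33 CPM in GF+PBS, and *Cyc1*, the cytochrome c1 of complex III that the naming rule leaves out, 268.5 ± 11.2 and 272.0 ± 16.3 CPM (SD, n = 5 each). None of 77 mitochondrial ribosomal proteins was called by edgeR, DESeq2 or limma-voom, beside 7.64%, 9.89% and 7.79% of all genes. At an unadjusted p under 0.05 edgeR had 5 of 77, beside 21.2% of all genes. The median log2 difference of the 77 was -0.07, with 59 of 77 below 0, beside 51% of all genes.

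Promoters of the nuclear members were read for motifs of factors known to act on this machinery. RefSeq windows of GRCm38.p6, from 250 bases before to 50 bases after the start, were found for 72 of the 89 nuclear members. The NRF1 motif, the palindrome in capitals at the first match in the *Cox6a1* window, stood in 7 of them (9.72%) and in 1.47% of the 17491 protein-coding genes with a window (1.07% of all genes with one). The ETS motif CCGGAAG, bound by GABPA, stood in 18 (25%) and in 12.9% of protein-coding genes (9.93% of all). The YY1 motif AAGATGGCG stood in 8 (11.1%) and in 2.14% of protein-coding genes (1.64% of all), and the ERR motif TCAAGGTCA in 2 (2.78%) and in 0.377% (0.466% of all). Both strands were searched, and no matches of different motifs overlapped in the members' windows. These are matches of letters, with no test, and say nothing of binding.

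The windows of *Cox6a1* and *Atp5k* are shown because each holds the NRF1 and the ETS motif, and that of *Sdhd* because it holds the ETS and the ERR motif. Capitals mark the matches, on either strand. The log2 differences of these genes were -0.07, -0.16 and -0.06, none of them called.
Cox6a1, chr5:115348909-115349208, minus strand: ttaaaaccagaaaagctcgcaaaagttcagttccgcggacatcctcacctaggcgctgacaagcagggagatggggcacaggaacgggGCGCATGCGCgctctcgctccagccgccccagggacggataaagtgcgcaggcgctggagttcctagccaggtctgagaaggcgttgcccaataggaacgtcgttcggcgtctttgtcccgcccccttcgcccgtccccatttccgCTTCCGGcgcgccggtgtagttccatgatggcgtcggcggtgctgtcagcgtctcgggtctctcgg
Atp5k, chr5:108434350-108434649, minus strand: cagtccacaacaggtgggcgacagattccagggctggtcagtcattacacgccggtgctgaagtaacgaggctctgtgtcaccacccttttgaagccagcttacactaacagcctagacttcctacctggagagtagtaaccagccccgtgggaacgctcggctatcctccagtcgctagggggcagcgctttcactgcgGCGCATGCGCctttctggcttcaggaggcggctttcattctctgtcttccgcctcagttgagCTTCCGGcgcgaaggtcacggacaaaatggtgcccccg
Sdhd, chr9:50603800-50604099, minus strand: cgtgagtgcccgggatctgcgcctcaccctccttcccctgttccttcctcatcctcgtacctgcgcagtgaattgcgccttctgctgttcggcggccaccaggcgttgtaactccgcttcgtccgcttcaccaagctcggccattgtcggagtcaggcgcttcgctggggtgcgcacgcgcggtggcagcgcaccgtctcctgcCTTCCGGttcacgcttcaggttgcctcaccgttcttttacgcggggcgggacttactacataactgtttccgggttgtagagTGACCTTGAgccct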

How the data were processed

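Liver RNA of 5 GF+MEV and 5 GF+PBS mice was analysed. Per the labels and methods, the authors extracted RNA from whole liver, aligned reads to GRCm38 with STAR 2.7.3a (base calls by bcl2fastq 2.17), counted reads per gene with HTSeq, left out low genes, and deposited raw counts. Whether counting used strand was not given in the sources used here. The table also held 5 columns that match no described sample, which were not used.

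Symbols, positions and exon lengths came from GENCODE M21, and 5 identifiers had no symbol in it. Genes with at least 20 summed counts were tested (12147) with edgeR 4.0.16 in R 4.3.3: TMM, quasi-likelihood test, treatment only, Benjamini-Hochberg adjustment, threshold 0.05. Standard errors were computed on log2 CPM (prior count 2), intervals in limma-voom (limma 3.58.1). Single genes were compared by exact permutation over 252 labelings, which cannot give a p under 0.00794. The steps were tested on simulated data. Alternatives were DESeq2 1.42.0, limma-voom, other scalings and filters, a replicate block, alike GF+PBS livers summed, and each liver left out.

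Members and lists were chosen with earlier results of these data known, as was the assignment of roles. Genes named with values were the 5 members with the smallest p, the highest level per length, largest rise and largest fall (mean of at least 1 CPM) per complex and genome, all mitochondrial-genome genes, tissue isoforms, and called list genes. *Atp5b*, *Ndufb2*, *Ndufb10*, *Uqcr11*, *Uqcrq*, *Atp5o*, the muscle markers and the uncalled list genes were named after their values were seen. Members held at least 12 counts in every library.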

Additional observations from a re-analysis of the deposited data

Results flagged for a closer look

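In 5 of 110 groups of 5 livers, the highest or lowest value stood apart from the other 4 by more than 0.71 of the range, and chance alone gives about 1 in 20 (5.5). *Cox6a2* measured 16.4 CPM in GF+MEV replicate 2, beside 7.50 to 8.80 CPM in the other GF+MEV livers. *Ndufa4l2* measured 3.17 CPM in GF+MEV replicate 1, beside 1.74 to 2.14 CPM.

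The other 3 values were all from GF+MEV replicate 2. Nuclear complex II genes took 0.111% of its counts, beside 0.128% to 0.132% in the other GF+MEV livers. The 3 ribosomal RNA-like rows took 9.24% of its counts, beside 0.164% to 0.287%, and the mitochondrial ribosomal RNAs *mt-Rnr1* and *mt-Rnr2* took 0.223%, beside 0.0286% to 0.0459%. With the 3 ribosomal RNA-like rows left out of the total, the share of complex II in this liver was 0.122%, beside 0.129% to 0.132%.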

How the results depend on the processing

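No member was called under DESeq2, limma-voom, the other scalings and filters, the replicate block or with alike GF+PBS livers summed. Leaving out single livers gave 0 to 2 called members and 696 to 926 called genes. Summing alike GF+PBS livers gave 561 called genes, against 928. Upper-quartile scaling gave 1040, of which 41.2% were higher in GF+MEV, against 53.9%. The replicate numbers did not pair the livers (correlations -0.19 to 0.17, with 2 of 5 pairs best matched), and the fit with the replicate block called 792 genes and 0 members.

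Estimates near 0 changed sign. For *mt-Nd4* the values were 0.000679 (DESeq2), 0.000689 (RLE size factors), 0.000177 (nuclear-gene library sizes) and 0.0218 (alike livers summed). Under upper-quartile scaling the values were -0.0144 for *mt-Co1*, -0.0281 for *mt-Co2*, -0.0294 for *Sdha*, -0.033 for *Uqcrfs1*, -0.028 for *Cox6b1* and -0.000132 for *Cox7a2l*. With alike livers summed they were 0.0175 for *mt-Co3*, 0.0165 for *Ndufa4* and 0.00724 for *Cox6a2*. The cause was not tested.

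Leaving out 1 liver at a time gave ranges across 0 for *mt-Nd3* (-0.1 to 0.0716), *mt-Nd4* (-0.0805 to 0.0946), *mt-Nd4l* (-0.155 to 0.0167), *mt-Cytb* (-0.0145 to 0.116), *mt-Co1* (-0.0102 to 0.0898), *mt-Co2* (-0.0353 to 0.0772), *mt-Co3* (-0.0808 to 0.0373), *Sdha* (-0.00722 to 0.0489), *Uqcrfs1* (-0.016 to 0.0246), *Cox6a2* (-0.275 to 0.0552), *Cox6b1* (-0.00518 to 0.0539), *Ndufa4* (-0.0467 to 0.0186) and *Atp5a1* (-0.0276 to 0.016). *Ppargc1b* ranged from 0.545 to 0.835 and *Mterf1a* from -0.916 to -0.716. *Mterf1a* lost its call under DESeq2 (adjusted p = 0.0590), the replicate block (0.0896) and summed livers (0.102), and *Tmem126b* and *Ppargc1b* under summed livers (0.0745 and 0.0544). *Pprc1* and *Tomm20*, not called by edgeR (adjusted p = 0.0672 and 0.0632), were called by DESeq2, and *Pprc1* also by limma-voom.

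With TMM library sizes, the difference in nuclear share (GF+MEV minus GF+PBS, percentage points) was -0.0323 in all, and -0.00783, -0.00263, -0.00407, -0.00659 and -0.0112 for complexes I to V. With single livers left out of the raw share, the nuclear difference was -0.115 to -0.0794. Counts were lowest for *Cox8b*, with 12 to 81 reads per library and a 95% interval of -1.79 to 0.09.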
